A study of Mus musculus with 18 samples.

Results

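Transcripts of 45 genes that license, copy and divide the genome were measured in 18 libraries from the apex of mouse hearts. They were picked by gene symbol from the 19197 genes of the gene tables, and each symbol had 1 row. The mice were of the inbred strain C57BL/6, and hearts were taken 1 day after surgery. Hearts formed 3 groups of 6, namely myocardial infarction (MI) with DCA at 10 mg/kg per day (MI_DCA), MI with vehicle (MI_vehicle) and a sham operation with vehicle (sham_vehicle). The labels do not spell out DCA, which is taken here as deoxycholic acid, a bile acid, since the study names it together with the bile acid receptor TGR5. Age, sex and the way of making the infarction were not given in the sources used here. The labels do not tell whether every library is a different mouse. The p-values therefore speak only of the spread among these libraries, which may be technical.

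DNA replication is prepared in G1, when Cdc6 and Cdt1 load the Mcm2 to Mcm7 helicase onto origins, a step called licensing. In S phase the GINS proteins and Mcm10 help to start the helicase, and Pcna, the clamp loader Rfc and the polymerases copy the strands with nucleotides supplied by ribonucleotide reductase, thymidylate synthase and thymidine kinase. Mitosis follows under Cdk1 with its B-type cyclins, the Aurora kinases and Plk1, and cyclin-dependent kinase inhibitors such as Cdkn1a (p21) and Cdkn1b (p27) hold the cycle back. Adult cardiomyocytes seldom divide, and in an infarcted heart most cycling cells are known to be other cells of the tissue or cells that enter it from the blood.

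By role, 11 members act in licensing and origin firing, 6 at the replication fork, 4 in nucleotide supply and 2 are S-phase regulators. These 23 are called the licensing and S-phase members. A further 14 act in mitosis, 6 are G1 cyclins or a G1/S kinase and 2 are inhibitors. Values are taken as FPKM, a unit judged from the values, which are per transcript length and relative to the mapped reads of the library. The libraries were made by capture, which may differ between genes, so levels of different genes are compared only roughly. In sham_vehicle hearts most members were low. The mean was under 1 FPKM for 10 members, from 1 to under 10 FPKM for 29, and 10 FPKM or more for 6, which were Ccnd3, Cdkn1a, Pcna, Cdkn1b, Ccnd2 and Ccnd1. Mitotic members had sham_vehicle means of 0.258 to 2.33 FPKM. All 45 members passed the minimum mean of 0.1 FPKM over the 18 libraries.

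Promoters of the members were searched as a description only. No link between the words found and the changes given below was tested. E2F factors bind words of the type TTTCGCGC, TTTGGCGC or TTTCCCGC, and the CHR word TTTGAA is the element through which MuvB complexes are known to act at late cell cycle genes. Windows of 300 bases, 250 before the annotated start and 50 from it on, were found in a RefSeq table (build GRCm38.p6) for 35 of the 45 members, and were searched on both strands for each word, where words may overlap at their ends. An E2F-type word stood in 9 of 19 licensing and S-phase members with a window (47.4%), in 1 of 11 mitotic members (9.09%), and in 3.74% of the 11679 tested genes with a window. The CHR word stood in 1 of 19 licensing and S-phase members (5.26%), in 8 of 11 mitotic members (72.7%), and in 14.8% of those tested genes. The single licensing member with a CHR word was Mcm2, and the single mitotic member with an E2F-type word was Cdk1. The CCAAT word, common to many promoters, stood in 68.4% of the licensing and S-phase members, 90.9% of the mitotic members and 42.7% of those tested genes.

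Promoters of 2 helicase subunits and 2 mitotic members are printed to show how the words lie. They are the 250 bases before the annotated start on GRCm38.p6, read 5′ to 3′ on the gene's strand, with E2F-type and CHR words, on either strand and also where they overlap, in capitals. Mcm5 is at chr8:75109259-75109508 (+), Mcm6 at chr1:128359706-128359955 (-), Cdk1 at chr10:69352913-69353162 (-) and Top2a at chr11:99024190-99024439 (-).
Mcm5: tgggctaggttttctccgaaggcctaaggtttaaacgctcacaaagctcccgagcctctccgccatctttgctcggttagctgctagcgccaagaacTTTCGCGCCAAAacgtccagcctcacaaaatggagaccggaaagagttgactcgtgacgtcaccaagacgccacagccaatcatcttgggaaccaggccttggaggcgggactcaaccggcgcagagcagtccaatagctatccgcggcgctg
Mcm6: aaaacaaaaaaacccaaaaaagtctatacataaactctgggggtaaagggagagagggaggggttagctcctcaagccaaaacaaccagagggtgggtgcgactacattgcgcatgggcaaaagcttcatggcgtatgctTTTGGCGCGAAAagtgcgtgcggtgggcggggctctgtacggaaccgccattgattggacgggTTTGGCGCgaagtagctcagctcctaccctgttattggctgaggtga
Cdk1: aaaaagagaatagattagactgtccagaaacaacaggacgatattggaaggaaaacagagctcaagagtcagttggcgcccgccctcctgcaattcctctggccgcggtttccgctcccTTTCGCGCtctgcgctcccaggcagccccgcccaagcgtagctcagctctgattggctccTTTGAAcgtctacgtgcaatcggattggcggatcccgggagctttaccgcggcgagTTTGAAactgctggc
Top2a: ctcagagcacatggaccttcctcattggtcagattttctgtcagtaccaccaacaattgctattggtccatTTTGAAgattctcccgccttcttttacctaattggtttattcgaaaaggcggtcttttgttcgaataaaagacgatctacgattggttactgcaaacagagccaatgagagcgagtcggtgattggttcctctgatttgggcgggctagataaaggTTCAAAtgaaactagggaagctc
Mcm5 held E2F-type words that began 153 and 149 bases before the start, and Mcm6 held them 110, 106 and 47 bases before it. The pair in Mcm5 and the first pair in Mcm6 are on opposite strands and share bases, so each pair shows as 1 run of capitals. Cdk1 held an E2F-type word 131 bases before its start and CHR words 71 and 15 bases before it. Top2a held CHR words 179 and 23 bases before its start and no E2F-type word. A match of letters is a description and not a binding site.

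**Figure D1:**
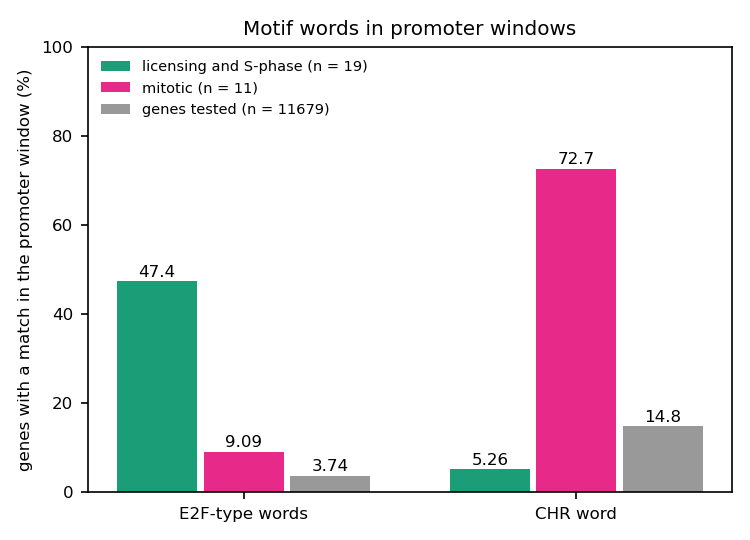
Share of genes (%, from 0) whose 300-base promoter window holds an E2F-type word or the CHR word, for 19 licensing and S-phase members, 11 mitotic members and 11679 tested genes with a window. The E2F-type bar is tallest for licensing and S-phase members (47.4%) and the CHR bar for mitotic members (72.7%).

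The question of the first comparison was what infarction did with vehicle alone, and both phases of the cycle were higher. In MI_vehicle against sham_vehicle hearts, 38 of 45 members rose, 1 fell (Cdkn1b) and 6 did not pass the test (limma on log2(FPKM + 0.1), Benjamini-Hochberg adjusted p under 0.05 over 14797 genes). Of all genes tested, 34.8% rose and 17.7% fell. With median-ratio scaling 3828 genes rose and 3741 fell, and with quantile normalization 3607 rose and 4149 fell, against 5149 and 2619 as deposited. Under each of these scalings 35 members rose and 1 fell. For 27 of the 45 members every MI_vehicle heart was above every sham_vehicle heart, as it was for 14.4% of all genes tested. The median log2 fold change was 1.22 over the 23 licensing and S-phase members, 1.36 over the 14 mitotic members and 0.13 over all genes tested. In this bulk tissue, fewer cells of a type and less RNA per cell cannot be told apart, nor can more cells and more RNA per cell.

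All 11 licensing and origin firing members rose, with log2 fold changes of 0.50 to 1.95. Cdt1 (GRCm38.p6, chr8:122568015-122573130), which loads the helicase, ranged from 2.72 to 8.18 FPKM (median 4.4) in MI_vehicle hearts and from 0.68 to 1.97 FPKM (median 1.1) in sham_vehicle hearts, a log2 fold change of 1.95 ± 0.27 (SE; adjusted p = 0.000187). Every MI_vehicle heart was above every sham_vehicle heart. Mcm5, a helicase subunit, ranged from 3.36 to 10.49 FPKM (median 7.75) in MI_vehicle hearts and from 1.47 to 2.42 FPKM (median 1.97) in sham_vehicle hearts (1.80 ± 0.25, adjusted p = 0.000183). Gins2, a subunit of the GINS complex of the active helicase, ranged from 2.46 to 6.34 FPKM (median 5.28) in MI_vehicle hearts and from 0.75 to 2.22 FPKM (median 1.26) in sham_vehicle hearts (1.80 ± 0.27, adjusted p = 0.000262). For both genes the groups were apart, and MI_vehicle heart 4 was the lowest of its group. Gins1, of the same complex, had the smallest rise of the 11 (0.50 ± 0.18, adjusted p = 0.0295) with overlapping groups, and its call was lost (adjusted p 0.0526 to 0.0682) without sham_vehicle 6 or without MI_vehicle 2, 3, 5 or 6.

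Fork and nucleotide genes rose less evenly. Of 6 fork members 5 rose, and the log2 fold change of Pola1, the catalytic subunit of the polymerase that lays primers, was 0.38 with adjusted p = 0.0691. Prim1, the primase, ranged from 2.53 to 6.33 FPKM (median 4.14) in MI_vehicle hearts and from 1.26 to 2.5 FPKM (median 1.5) in sham_vehicle hearts (1.24 ± 0.24, adjusted p = 0.00102). Rfc3, of the clamp loader, ranged from 5.21 to 8.9 FPKM (median 8.14) in MI_vehicle hearts and from 3 to 3.62 FPKM (median 3.27) in sham_vehicle hearts (1.13 ± 0.14, adjusted p = 8.49e-05). Neither gene overlapped between the groups, and Rfc3 had the narrower sham_vehicle range. Pcna, the sliding clamp and by level the highest of the 23, ranged from 33.42 to 69.32 FPKM (median 54.9) in MI_vehicle hearts and from 24.56 to 34.24 FPKM (median 28.9) in sham_vehicle hearts (0.82 ± 0.15, adjusted p = 0.000949). Here the groups overlapped through MI_vehicle heart 4 alone. Pole, the leading-strand polymerase, had a log2 fold change of 0.50 (adjusted p = 0.0372), and its call was lost (adjusted p 0.0675 to 0.0879) without sham_vehicle 2, 5 or 6 or without MI_vehicle 1, 2 or 6.

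In nucleotide supply 3 of 4 members rose. Rrm2, the regulated subunit of ribonucleotide reductase, ranged from 2.82 to 9.55 FPKM (median 4.99) in MI_vehicle hearts and from 1.45 to 2.17 FPKM (median 1.63) in sham_vehicle hearts (1.48 ± 0.24, adjusted p = 0.000412). Tk1, the S-phase thymidine kinase, ranged from 3.19 to 10.42 FPKM (median 5.5) in MI_vehicle hearts and from 1.53 to 2.62 FPKM (median 2.12) in sham_vehicle hearts (1.41 ± 0.25, adjusted p = 0.000686). Both were apart between the groups, with MI_vehicle heart 6 the highest. Rrm1, the other reductase subunit, rose by 0.80 on the log2 scale, and Tyms, thymidylate synthase, had 0.30 with adjusted p = 0.0773. Tyms was called without sham_vehicle 6 or without MI_vehicle 4 (adjusted p 0.037 and 0.032).

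Both S-phase regulators rose. E2f1, an activating E2F factor, ranged from 1.95 to 4.91 FPKM (median 2.83) in MI_vehicle hearts and from 1.1 to 1.54 FPKM (median 1.15) in sham_vehicle hearts (1.22 ± 0.21, adjusted p = 0.000531). Uhrf1, which helps copy DNA methylation behind the fork, had the largest log2 fold change of the 45 members, 2.08 ± 0.23 (adjusted p = 5.27e-05), from 2.98 to 8.52 FPKM (median 6.32) in MI_vehicle hearts and 0.97 to 1.74 FPKM (median 1.24) in sham_vehicle hearts. For both genes every MI_vehicle heart was above every sham_vehicle heart.

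Among mitotic members 13 of 14 rose, with adjusted p at or under 0.0156, and 11 of the 14 did not overlap between groups, where 14.4% of all genes tested were higher without overlap. Ccnb1 (chr13:100778739-100786486), cyclin B1, ranged from 1.52 to 5.67 FPKM (median 1.75) in MI_vehicle hearts and from 0.49 to 1.11 FPKM (median 0.63) in sham_vehicle hearts (1.75 ± 0.35, adjusted p = 0.00126). Only MI_vehicle hearts 1 and 6 exceeded 5 FPKM, while the other MI_vehicle hearts lay between 1.52 and 1.76 FPKM. Top2a, the topoisomerase that untangles sister chromatids, ranged from 2.83 to 9.18 FPKM (median 3.85) in MI_vehicle hearts and from 0.85 to 1.6 FPKM (median 1.37) in sham_vehicle hearts (1.71 ± 0.28, adjusted p = 0.000407). Aurkb, a kinase of the chromosomal passenger complex, ranged from 1.76 to 6.2 FPKM (median 3.16) in MI_vehicle hearts and from 0.71 to 1.42 FPKM (median 0.87) in sham_vehicle hearts (1.70 ± 0.29, adjusted p = 0.000597). Its partner Birc5 ranged from 4.04 to 12.59 FPKM (median 5.8) in MI_vehicle hearts and from 1.3 to 3.39 FPKM (median 2.2) in sham_vehicle hearts (1.55 ± 0.32, adjusted p = 0.0016). The groups were apart for all 3 genes, and hearts 1 and 6 again led.

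Cdk1, the mitotic kinase, ranged from 1.7 to 5.91 FPKM (median 2.37) in MI_vehicle hearts and from 0.71 to 1.34 FPKM (median 0.88) in sham_vehicle hearts (1.46 ± 0.29, adjusted p = 0.00126). Mki67, which coats mitotic chromosomes and is used to mark cycling cells, ranged from 1.62 to 4.98 FPKM (median 2.23) in MI_vehicle hearts and from 0.82 to 1.55 FPKM (median 1.12) in sham_vehicle hearts (1.2 ± 0.29, adjusted p = 0.00368). Both genes kept the groups apart, Mki67 by a narrow margin. Ccna2, Aurka, Plk1, Bub1, Cdc20, Tpx2 and Kif11, which encode cyclin A2, spindle kinases, a checkpoint kinase, an activator of the anaphase-promoting complex and spindle proteins, rose with log2 fold changes between 1.03 and 1.47. Ccnb2, cyclin B2, did not pass the test (log2 fold change 0.70, 95% interval -0.12 to 1.52). It reached 7.52 FPKM in MI_vehicle heart 1, but MI_vehicle hearts 2, 3 and 4 lay within the sham_vehicle range of 0.97 to 2.09 FPKM.

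The G1 genes moved least. Of 6 members, 3 rose and all 6 overlapped between the groups. Ccnd1, cyclin D1, ranged from 15.65 to 35.5 FPKM (median 26.2) in MI_vehicle hearts and from 14.02 to 19.03 FPKM (median 15.8) in sham_vehicle hearts (0.68 ± 0.16, adjusted p = 0.0038). Ccnd3, cyclin D3, ranged from 49.54 to 70.8 FPKM (median 59.7) in MI_vehicle hearts and from 41.58 to 53.9 FPKM (median 47.9) in sham_vehicle hearts (0.34 ± 0.10, adjusted p = 0.0115). Ccne1, cyclin E1, ranged from 0.89 to 3.11 FPKM (median 2.34) in MI_vehicle hearts and from 0.34 to 1.31 FPKM (median 0.9) in sham_vehicle hearts (1.16 ± 0.35, adjusted p = 0.0135). Ccnd1 overlapped between the groups through MI_vehicle heart 4 alone, and Ccne1 through hearts 4 and 5. Ccnd2, cyclin D2, ranged from 20.31 to 26.57 FPKM (median 24.8) in MI_vehicle hearts and from 23.2 to 28.14 FPKM (median 23.8) in sham_vehicle hearts, with a log2 fold change of -0.01 (95% interval -0.18 to 0.16). Its interval lies below those of Ccnd1 and Ccne1. Ccne2 and Cdk2 had log2 fold changes of 0.37 and 0.40 (adjusted p = 0.16 and 0.0658). Without MI_vehicle 4 both were called (adjusted p = 0.0172 and 0.0186), as was Pola1 (0.0353). Cdk2 was also called without sham_vehicle 3 or 4, and Pola1 without sham_vehicle 3 or 5 (adjusted p at most 0.0428).

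The 2 inhibitors went opposite ways. Cdkn1a (chr17:29090979-29100722), p21 and a p53 target, ranged from 29.94 to 119.47 FPKM (median 92.4) in MI_vehicle hearts and from 17.5 to 48.2 FPKM (median 32.4) in sham_vehicle hearts (1.41 ± 0.35, adjusted p = 0.00491). MI_vehicle heart 4 lay within the sham_vehicle range and the other 5 above it, while the sham_vehicle hearts themselves split into hearts 1, 3 and 4 at 17.5 to 20.58 FPKM and hearts 2, 5 and 6 at 44.19 to 48.2 FPKM. Cdkn1b (chr6:134920401-134925525), p27, ranged from 14.08 to 24.85 FPKM (median 19) in MI_vehicle hearts and from 21.59 to 27.72 FPKM (median 26) in sham_vehicle hearts (-0.42 ± 0.13, adjusted p = 0.0153). MI_vehicle hearts 4 and 5 overlapped with the sham_vehicle hearts and the other 4 were below them. Values rest on 18 libraries. Estimated reads were 11050000 to 13700000 in MI_vehicle, 9950000 to 12800000 in MI_DCA and 9550000 to 10550000 in sham_vehicle hearts. Every MI_vehicle library was thus deeper than every sham_vehicle library, and the part of depth in the rises was not tested. Among the lowest values of 37 members with a read estimate, that of Ccnb1 in MI_DCA heart 3 rested on the fewest reads, about 6.5. Pcna, Tyms, Ccnd3, Ccnb1, Ccnb2 and Aurkb have annotated pseudogene copies that could share reads, and 12 members overlap another protein-coding gene, so their levels are uncertain. With median-ratio scaling Gins1, Pole and Ccnd3 lost their call (adjusted p = 0.0879, 0.091 and 0.0996), and with quantile normalization Gins1, Pole and Rfc4 did (0.156, 0.236 and 0.0695).

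**Figure D2:**
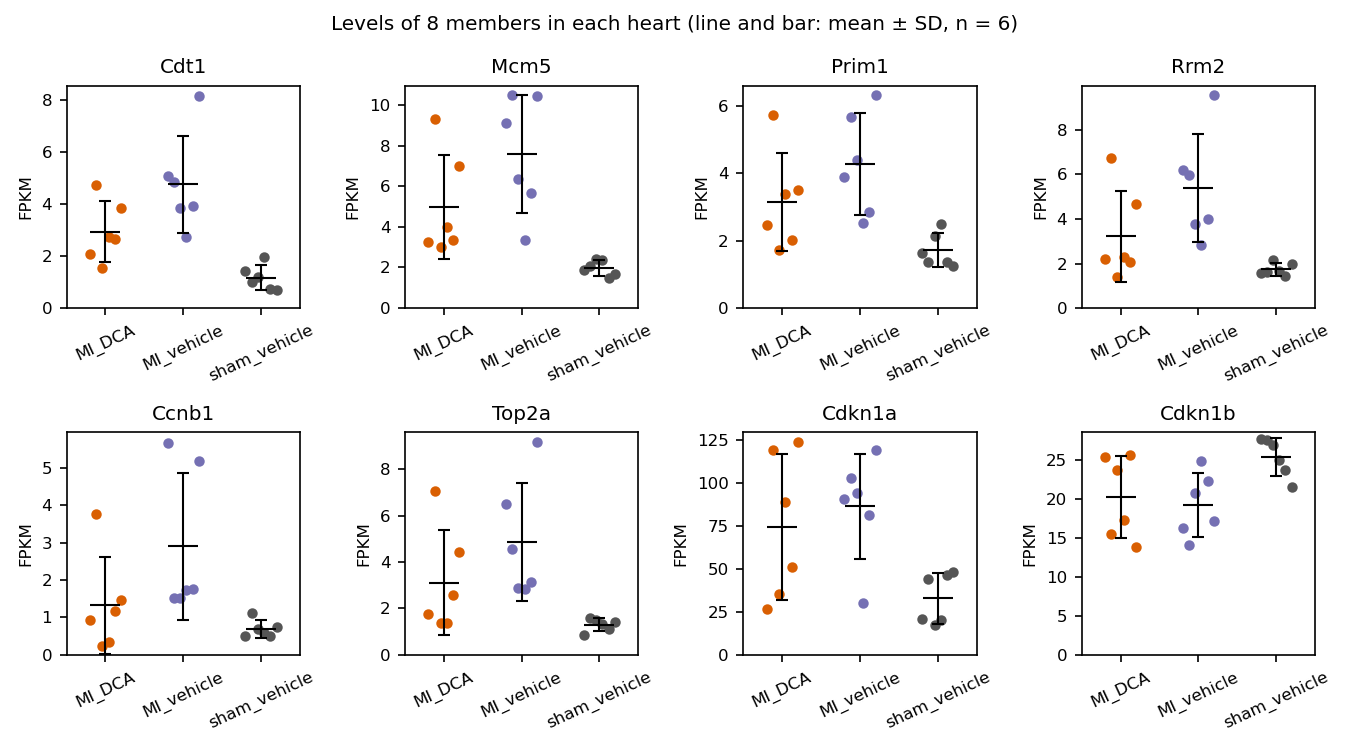
FPKM of 8 members in each heart, by group (points are hearts, the line and bar are mean ± SD, n = 6 each). MI_vehicle hearts sit above all sham_vehicle hearts for Cdt1, Mcm5, Prim1, Rrm2, Ccnb1 and Top2a, MI_DCA hearts overlap the MI_vehicle hearts for all 8 genes, and Cdkn1b is lower in MI_vehicle than in sham_vehicle hearts.

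Cell cycle genes outside the 45 were also mostly higher in MI_vehicle against sham_vehicle hearts, where 34.8% of all genes tested rose and 17.7% fell. Of 42 further replication genes 32 rose and 2 fell. Clspn, the checkpoint mediator claspin, rose by 1.86 on the log2 scale and Chaf1b, a histone chaperone of the fork, by 1.77, whereas Gmnn, geminin, the inhibitor of Cdt1, fell by 0.92 and Dut, a dUTPase, fell by 0.29. Gmnn ranged from 11.39 to 36.47 FPKM in MI_vehicle hearts and from 29.47 to 42.52 FPKM in sham_vehicle hearts, with overlap through MI_vehicle heart 4 alone. Of 40 further mitotic genes 35 rose and 1 fell, with Melk at 1.75 and Pbk at 1.62, both kinases of dividing cells, and Cenpf, a kinetochore protein, at -0.90. Of 21 further G1 regulators 13 rose and 4 fell. Myc had a log2 fold change of 2.18 and E2f2 of 1.63, and the inhibitors Cdkn1c (p57) and Cdkn2a (p16 and Arf) had -1.64 and -1.11, although Cdkn2a was near 0 FPKM throughout. Of 18 p53 targets 12 rose and 6 fell, with Gdf15 at 3.54, Pmaip1 at 1.39, Sesn1 at -1.33 and Gadd45a at -1.01, so the list did not move one way.

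The lists of cell type markers did not all move one way. All 9 monocyte and macrophage markers rose in MI_vehicle against sham_vehicle hearts, their summed level being 452 to 967 FPKM in MI_vehicle hearts and 258 to 425 FPKM in sham_vehicle hearts, and all 7 neutrophil markers rose, with sums of 53.6 to 379 FPKM in MI_vehicle hearts and 10.0 to 37.3 FPKM in sham_vehicle hearts. Of 8 cardiomyocyte markers 1 rose and 6 fell, with sums of 27600 to 39600 FPKM in MI_vehicle hearts and 41100 to 45600 FPKM in sham_vehicle hearts. Fibroblast markers (3 of 7 rose, 2 fell) summed to 619 to 1000 FPKM in MI_vehicle hearts and 1150 to 1420 FPKM in sham_vehicle hearts. Endothelial markers (2 of 7 fell) summed to 306 to 397 FPKM in MI_vehicle hearts and 339 to 438 FPKM in sham_vehicle hearts. Smooth muscle and pericyte markers (2 of 6 rose, 2 fell) summed to 274 to 451 FPKM in MI_vehicle hearts and 379 to 471 FPKM in sham_vehicle hearts. Of 9 lymphocyte markers, 8 of them tested, 3 rose, with sums of 3.94 to 4.88 FPKM in MI_vehicle hearts and 2.62 to 3.31 FPKM in sham_vehicle hearts, and the 4 erythroid markers tested of 5 did not pass the test, with sums of 110 to 1050 FPKM in MI_vehicle hearts and 210 to 1440 FPKM in sham_vehicle hearts. No marker was at 0 in all libraries, and the part of these cells in the cell cycle result was not tested.

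**Figure D3:**
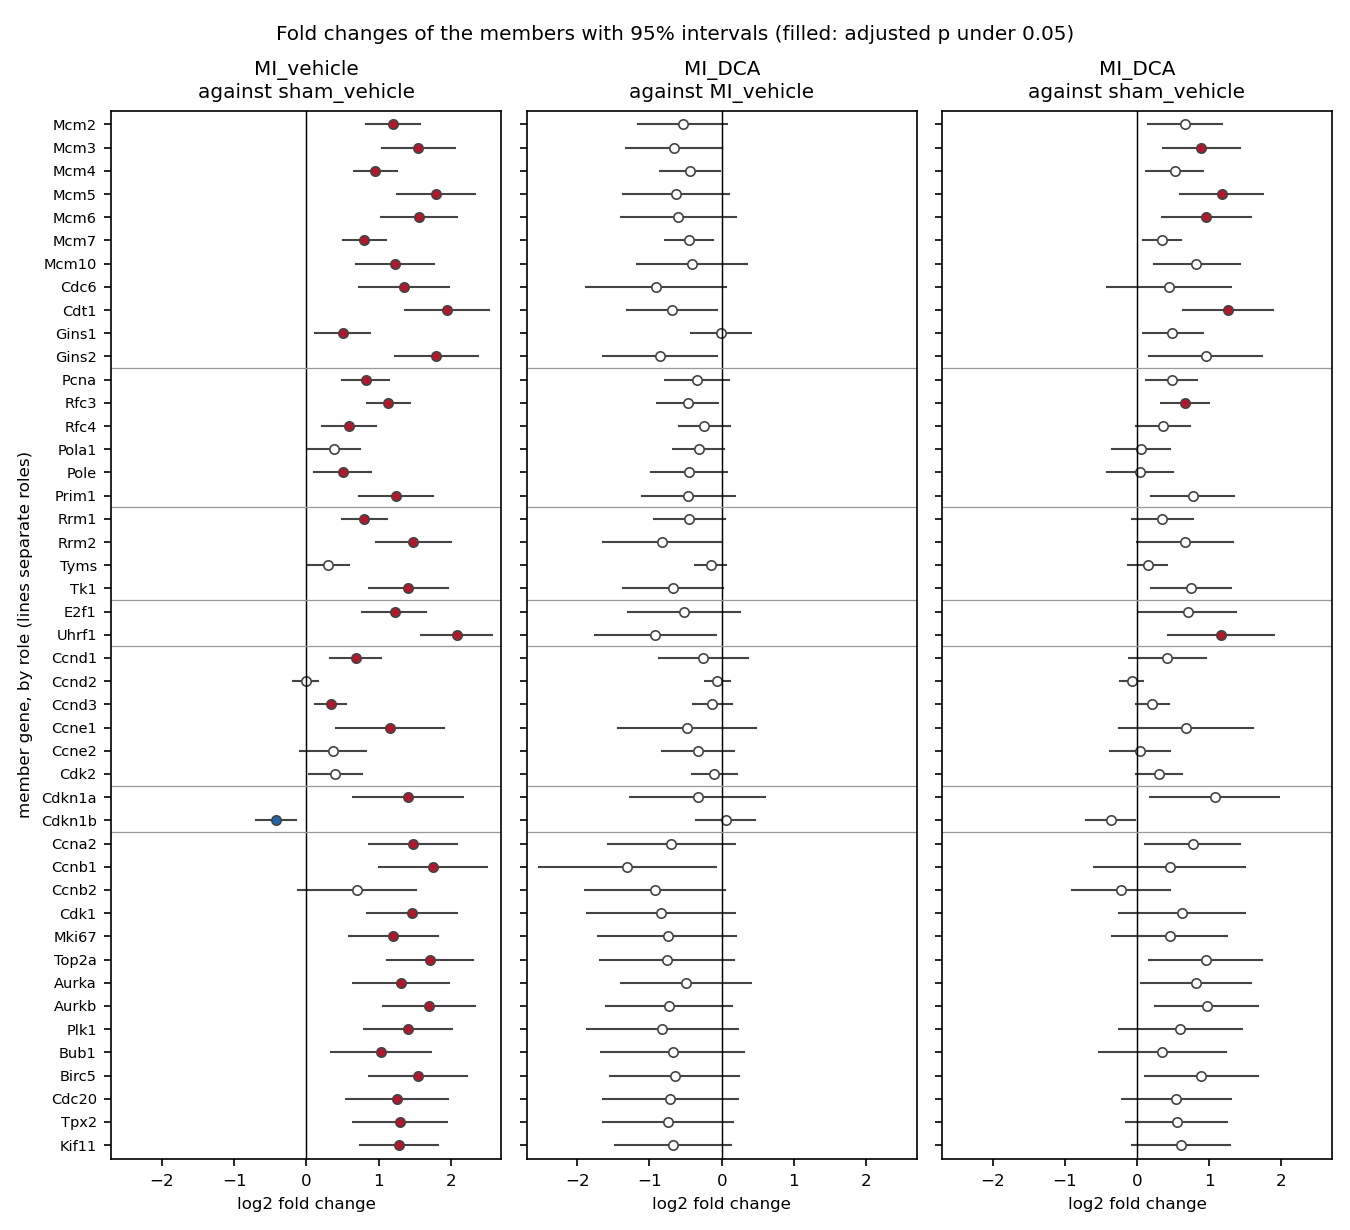
Log2 fold change of each member with its 95% interval, in 3 panels (MI_vehicle against sham_vehicle, MI_DCA against MI_vehicle, MI_DCA against sham_vehicle), on the log2(FPKM + 0.1) scale, with filled points for adjusted p under 0.05. In the first panel 38 points are filled red and 1 blue, in the second none is filled, and in the third 6 are filled red, all of licensing or S-phase members.

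The second comparison asked what DCA did after infarction, and no member passed the test. In MI_DCA against MI_vehicle hearts, 0 of 45 members were called by limma, as were 0.0% of all genes tested, and 7 members had an unadjusted p under 0.05, all with a negative fold change, where 8.87% of all genes tested had one with a negative fold change. Of the 7 members, 6 were licensing and S-phase members and 1, Ccnb1, was mitotic. The log2 fold change was negative for 44 of 45 members, the exception being Cdkn1b at 0.06. Its median was -0.47 over the licensing and S-phase members, -0.74 over the mitotic members and -0.08 over all genes tested. Every member overlapped between the groups, and 0.561% of all genes tested did not. Adjusted p-values of the members were 0.418 to 0.991.

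The member with the smallest p was Mcm7, a helicase subunit. It ranged from 6.83 to 11.26 FPKM (median 8.23) in MI_DCA hearts and from 8.06 to 14.77 FPKM (median 12.2) in MI_vehicle hearts, with a log2 fold change of -0.45 ± 0.15 (95% interval -0.79 to -0.12, adjusted p = 0.418). Larger fold changes had wider intervals, such as Cdt1 with -0.69 (-1.31 to -0.07), Gins2 with -0.86 (-1.64 to -0.07) and Uhrf1 with -0.92 (-1.75 to -0.08). Rfc3 had -0.47 (-0.89 to -0.05), from 4.24 to 7.95 FPKM (median 4.58) in MI_DCA hearts against 5.21 to 8.9 FPKM (median 8.14) in MI_vehicle hearts. Ccnb1 had the most negative fold change, -1.31 (-2.53 to -0.08), from 0.24 to 3.77 FPKM (median 1.04) in MI_DCA hearts against 1.52 to 5.67 FPKM (median 1.75) in MI_vehicle hearts. Intervals of this width leave the size of any difference, or its absence, undetermined with 6 hearts a group.

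The median log2 fold change was -0.20 over the 6 G1 members and -0.14 over the 2 inhibitors. Cdkn1a ranged from 26.67 to 124.09 FPKM (median 70) in MI_DCA hearts and from 29.94 to 119.47 FPKM (median 92.4) in MI_vehicle hearts, a log2 fold change of -0.33 (-1.27 to 0.60). Ccnd2 had -0.06 (-0.23 to 0.11), Gins1 -0.01 (-0.42 to 0.41), and Cdk2 -0.10 (-0.41 to 0.21). For the last 3 genes the interval is narrower than for any of the mitotic members. Summed monocyte and macrophage markers were 271 to 715 FPKM in MI_DCA hearts and 452 to 967 FPKM in MI_vehicle hearts, and summed neutrophil markers were 40.4 to 180 FPKM in MI_DCA hearts and 53.6 to 379 FPKM in MI_vehicle hearts. Summed lymphocyte markers did not overlap, at 1.12 to 3.53 FPKM in MI_DCA hearts and 3.94 to 4.88 FPKM in MI_vehicle hearts, though no marker was called. These sums rest on low values. Other lists went other ways: log2 fold changes were positive for 7 of 8 cardiomyocyte, 6 of 7 endothelial and 3 of 6 smooth muscle and pericyte markers. They were positive for 2 of 7 fibroblast and 1 of 4 tested erythroid markers. Cardiomyocyte sums were 26400 to 44400 FPKM in MI_DCA hearts and 27600 to 39600 FPKM in MI_vehicle hearts. The part of these cells was not tested.

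In the third comparison, MI_DCA against sham_vehicle hearts, 6 of 45 members rose and 0 fell, where 12.6% of all genes tested rose and 6.62% fell. With the values as deposited, the share of members that rose was near that of all genes. All genes split into 1384 higher and 1375 lower with median-ratio scaling and into 1360 and 1531 with quantile normalization, against 1871 and 979 as deposited, and 6 members rose under each. The 6 are all licensing or S-phase members, namely Mcm3, Mcm5, Mcm6, Cdt1, Rfc3 and Uhrf1. None of the 14 mitotic members was called by limma (adjusted p 0.0553 to 0.633). Of them 5 had an unadjusted p under 0.05, all with a positive fold change, as had 23.8% of all genes tested. The median log2 fold change was 0.60 over the mitotic members, 0.66 over the licensing and S-phase members and 0.06 over all genes tested. Without MI_DCA heart 2 the medians were 0.28 for the mitotic and 0.46 for the licensing and S-phase members. No test was made of the difference between both sets. This comparison shares the sham_vehicle hearts with the first, so its values are set beside those of the first and not counted as further evidence.

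Cdt1 ranged from 1.55 to 4.75 FPKM (median 2.7) in MI_DCA hearts and from 0.68 to 1.97 FPKM in sham_vehicle hearts (1.26 ± 0.29, adjusted p = 0.0178). Mcm5 ranged from 3.01 to 9.32 FPKM (median 3.67) in MI_DCA hearts and from 1.47 to 2.42 FPKM in sham_vehicle hearts (1.17 ± 0.26, adjusted p = 0.0167). Rfc3 ranged from 4.24 to 7.95 FPKM (median 4.58) in MI_DCA hearts and from 3 to 3.62 FPKM in sham_vehicle hearts (0.66 ± 0.16, adjusted p = 0.0189). Mcm5 and Rfc3 did not overlap between the groups, nor did Mcm10, and Cdt1 did through MI_DCA heart 3 alone. These 3 of 45 members are a share near the 5.51% of all genes tested that were higher without overlap. Mcm3, Mcm6 and Uhrf1 had log2 fold changes of 0.89, 0.96 and 1.16 (adjusted p = 0.0294, 0.0364 and 0.0347). Mcm6 ranged from 4.76 to 19.06 FPKM (median 8.38) in MI_DCA hearts and from 3.91 to 5.28 FPKM in sham_vehicle hearts, and MI_DCA heart 3 alone lay within the sham_vehicle range. A further 14 members, 4 of them mitotic, had an adjusted p from 0.05 to under 0.1. Mitotic members spread more: Cdk1 ranged from 0.62 to 5.17 FPKM (median 1.34) in MI_DCA hearts and from 0.71 to 1.34 FPKM in sham_vehicle hearts (0.62 ± 0.40, adjusted p = 0.265).

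The count of 6 turned on single hearts. It was 3 without sham_vehicle 2, 5 or 6 or without MI_DCA 2 or 6, 4 without sham_vehicle 1, 3 or 4 or without MI_DCA 4, 9 without MI_DCA 5 (8 licensing and S-phase members and 1 mitotic), 14 without MI_DCA 1 (11 and 2) and 18 without MI_DCA 3 (15 and 2). Cdt1, Mcm5 and Rfc3 were called in each of these.

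Of the other lists in MI_DCA against sham_vehicle hearts, 15 of 42 replication genes rose and 2 fell, 1 of 40 mitotic genes rose and 1 fell, 4 of 21 G1 regulators rose and 1 fell, and 4 of 18 p53 targets rose and 3 fell. Beside these counts, 12.6% of all genes tested rose and 6.62% fell. Clspn rose by 1.15 on the log2 scale and Myc by 1.63, and Gmnn fell by 0.87. Melk, the mitotic gene that rose, had 1.22, with overlap (0.55 to 2.23 FPKM in MI_DCA and 0.13 to 0.62 FPKM in sham_vehicle hearts). Cenpa, of the same list, was lower without overlap, at 11.21 to 22.56 FPKM in MI_DCA hearts and 22.79 to 30.72 FPKM in sham_vehicle hearts. Among markers, 5 of 9 of monocytes and macrophages rose, with a summed level of the list of 271 to 715 FPKM in MI_DCA hearts and 258 to 425 FPKM in sham_vehicle hearts. Of the neutrophil markers 6 of 7 rose, with sums of 40.4 to 180 FPKM in MI_DCA hearts and 10.0 to 37.3 FPKM in sham_vehicle hearts. Of the fibroblast markers 4 of 7 fell, with sums of 471 to 1060 FPKM in MI_DCA hearts and 1150 to 1420 FPKM in sham_vehicle hearts. Of the cardiomyocyte markers 2 of 8 fell, with sums of 26400 to 44400 FPKM in MI_DCA hearts and 41100 to 45600 FPKM in sham_vehicle hearts. Of the smooth muscle and pericyte markers 2 of 6 fell, with sums of 212 to 409 FPKM in MI_DCA hearts and 379 to 471 FPKM in sham_vehicle hearts. No endothelial, lymphocyte or erythroid marker was called by limma. The part of these cells was not tested.

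**Figure D4:**
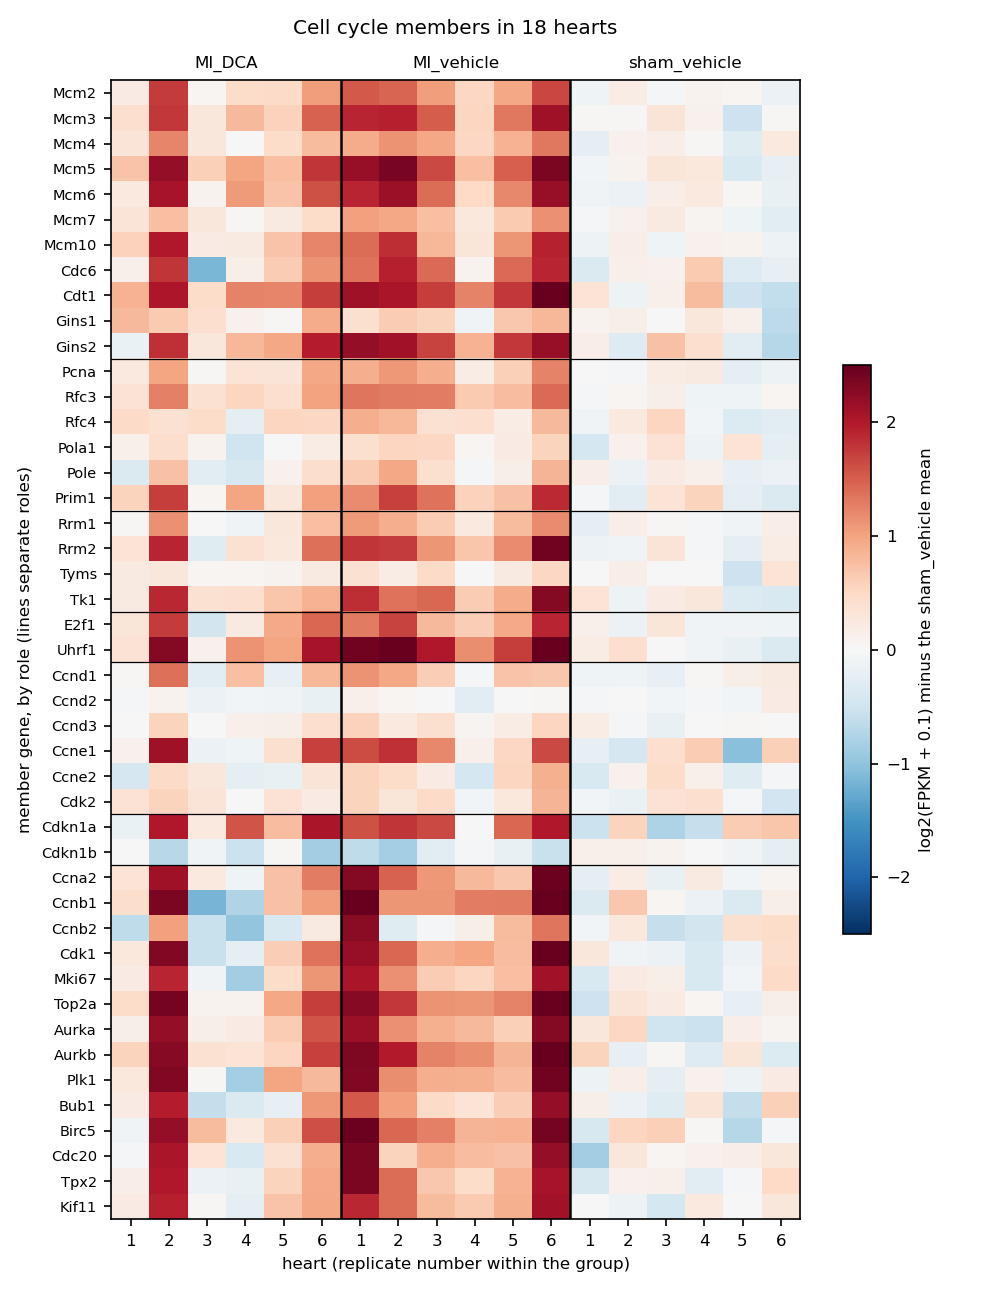
Log2(FPKM + 0.1) of each member (rows, by role) in each of 18 hearts (columns), minus the mean of the sham_vehicle hearts, with red above and blue below that mean. MI_DCA heart 2 and MI_vehicle hearts 1 and 6 are deep red over the mitotic rows, while MI_DCA hearts 3 and 4 are near or below the sham_vehicle mean in most of them.

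Within both infarcted groups, hearts ranged more widely in mitotic than in licensing and S-phase genes. Each member's log2(FPKM + 0.1) minus its sham_vehicle mean was averaged per heart over the 23 licensing and S-phase members and over the 14 mitotic members. The licensing and S-phase average was 0.10 to 1.43 in MI_DCA hearts (median 0.44), 0.47 to 1.66 in MI_vehicle hearts (median 1.22) and -0.19 to 0.20 in sham_vehicle hearts. The mitotic average was -0.29 to 2.08 in MI_DCA hearts (median 0.35), 0.77 to 2.30 in MI_vehicle hearts (median 1.02) and -0.15 to 0.23 in sham_vehicle hearts.

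Single hearts set the upper end. MI_DCA heart 2 had 1.43 for licensing and S phase and 2.08 for mitosis, beside 1.35 and 2.24 in MI_vehicle heart 1 and 1.66 and 2.30 in MI_vehicle heart 6. MI_DCA heart 2 was the highest MI_DCA heart for all 14 mitotic members and 20 of 23 licensing and S-phase members. MI_vehicle hearts 1 and 6 were the highest of their group for all 14 mitotic members, but for 8 of the 23 licensing and S-phase members. MI_vehicle heart 2 had an average of 1.45 for licensing and S phase and of 1.19 for mitosis. MI_vehicle heart 4 was the lowest of its group for 22 of 23 licensing and S-phase members and for 6 of 14 mitotic members.

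The lower end held hearts of the MI_DCA group. MI_DCA heart 3 had averages of 0.10 and -0.07, within the range of the sham_vehicle hearts. MI_DCA heart 4 had 0.38 for licensing and S phase and -0.29 for mitosis. In that heart 13 of 23 licensing and S-phase members were above all sham_vehicle hearts. Of 14 mitotic members, 0 were above and 4 were below all sham_vehicle hearts. MI_DCA heart 1 had averages of 0.32 and 0.18, heart 5 had 0.51 and 0.52, and heart 6 had 1.09 and 1.17. Cdkn1a stood at 26.67, 119.48, 35.26, 88.89, 51.11 and 124.09 FPKM in MI_DCA hearts 1 to 6, in that order. Its part in these averages was not tested.

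**Figure D5:**
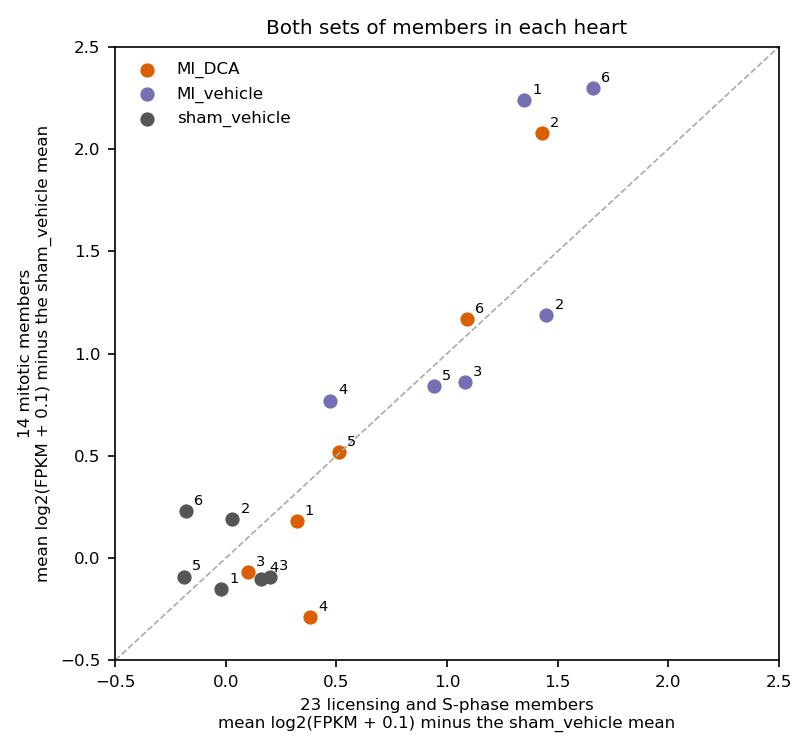
Average of 14 mitotic members (vertical axis) against that of 23 licensing and S-phase members (horizontal axis) in each heart, both as mean log2(FPKM + 0.1) minus the sham_vehicle mean, with heart numbers beside the points and a dashed line of equality. MI_vehicle hearts 1 and 6 and MI_DCA heart 2 stand far above the line, and MI_DCA heart 4 stands below it at 0.38 and -0.29.

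Other measures also differed between hearts. The 3 hearts highest in the mitotic average had deeper libraries and a lower sum of cardiomyocyte markers than the sham_vehicle hearts. This was not particular to them, since it held for every MI_vehicle heart. MI_vehicle heart 4, with a mitotic average of 0.77, had 11050000 reads and a sum of 39600 FPKM. MI_DCA heart 4, with a mitotic average of -0.29, had 11250000 reads and a sum of 41000 FPKM. The estimated reads were 12750000 in MI_DCA heart 2, 13100000 in MI_vehicle heart 1 and 13700000 in MI_vehicle heart 6, against 10800000 in MI_DCA heart 3 and 9550000 to 10550000 in the sham_vehicle hearts. Myh6, the main myosin heavy chain of mouse heart muscle, stood at 1309.07 FPKM in MI_DCA heart 2, 1637.61 FPKM in MI_vehicle heart 1 and 1286.07 FPKM in MI_vehicle heart 6, against 4427.72 FPKM in MI_DCA heart 3 and 4031.9 to 4667.92 FPKM in the sham_vehicle hearts. The 8 cardiomyocyte markers summed to 26400 FPKM in MI_DCA heart 2, 32200 FPKM in MI_vehicle heart 1 and 27600 FPKM in MI_vehicle heart 6, against 44400 FPKM in MI_DCA heart 3 and 41100 to 45600 FPKM in the sham_vehicle hearts. In each of these 3 hearts 7 of the 8 markers lay below all sham_vehicle hearts and 1 above. Actc1, cardiac actin, was the one above, at 11869.18 FPKM in MI_DCA heart 2, 13658.79 FPKM in MI_vehicle heart 1 and 12614.69 FPKM in MI_vehicle heart 6, against 7434.36 FPKM in MI_DCA heart 3 and 6741.83 to 7756.31 FPKM in the sham_vehicle hearts. Ptprc, the pan-leukocyte gene CD45, stood at 11.22 FPKM in MI_DCA heart 2, 7.78 FPKM in MI_vehicle heart 1 and 11.84 FPKM in MI_vehicle heart 6, against 3.69 FPKM in MI_DCA heart 3 and 2.37 to 4.45 FPKM in the sham_vehicle hearts. MI_DCA heart 4 combined 2120.1 FPKM of Myh6 with 4.66 FPKM of Ptprc, and MI_vehicle heart 2, high in licensing members, had the highest Ptprc, 14.81 FPKM. MI_DCA heart 6 and MI_vehicle heart 2 had 12800000 estimated reads each, with mitotic averages of 1.17 and 1.19, against 2.08 in MI_DCA heart 2. Their Myh6 stood at 1472.83 and 1308.36 FPKM and their marker sums at 32300 and 27600 FPKM. MI_vehicle heart 5 had 12700000 reads and a mitotic average of 0.84. The part of depth and cell content in the averages was not tested.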

How the data were processed

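RNA of heart apices was read as single reads of 50 bases from 18 RNA Access libraries, a capture method for coding transcripts, per the labels' protocols. The tools named in the submitters' processing notes are RSEM 1.2.12, DESeq2 1.4.5 and Bowtie2 2.2.5, and the build there is GRCm38.p6. Their roles and the annotation were not given in the sources used here. The files deposited by the authors give FPKM per gene to 2 decimals. The unit has no header and was judged from the values. Depth is not stated. Steps of 1 read in 346 to 435 genes with 1 transcript gave estimates of 9550000 to 13700000 reads per library, searched between 8000000 and 16000000, with 77.8% to 83.9% of values within 0.2 of a whole read, and a spacing that is off by a factor cannot be told apart. FPKM allow no counting interval.

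Groups come from the tissue and treatment labels, and replicate numbers from the titles. Each pair of groups was fitted alone with limma 3.58.1 in R 4.3.3, with moderation along the mean level, on log2(FPKM + 0.1). The minimum mean over 18 libraries was 0.1 FPKM, which 14797 genes passed, and calls needed an adjusted p (Benjamini-Hochberg) under 0.05. The low pseudocount leaves the fold changes of low genes less shrunken than a pseudocount of 1 would. Fold changes still understate the change of the lowest genes. The fit was tested on simulated data. A permutation test meant for members below the minimum was not needed. Gene coordinates and promoters come from RefSeq tables of GRCm38.p6, which 19051 (99.2%) of the gene identifiers matched. Members named with full values were the called members with the largest change per role (3 licensing, 2 fork, 2 nucleotide, 4 mitotic), a standing list (Cdkn1a, Cdkn1b, Ccnd1, Ccnd2, Ccnd3, Ccne1, E2f1, Pcna, Mki67, Cdk1) and the 3 of smallest p under DCA. Of other lists, the 2 largest called rises and falls were named. Uhrf1, Mcm6, Cenpa and hearts singled out were chosen after their values were seen. Members and lists were chosen with earlier results of these data known. Alternatives were other pseudocounts and filters, 2 scalings, robust moderation, 1 fit of all 18 libraries, a replicate block and leaving out each library.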

Additional observations from a re-analysis of the deposited data

Results flagged for a closer look

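In 135 sets of 6 hearts (45 members in 3 groups), 11 held a heart far from the rest by Dixon's criterion for 6 values (the gap to the next heart over the whole range). The criterion's rate of about 1 in 20 by chance is for normal values in separate sets. These are FPKM without logarithm, and the sets share the same hearts, so the 11 cannot be set against that rate. MI_DCA heart 2 was the high one in 6 of them, with 7.8 FPKM of Tk1 (next 3.8), 3.77 FPKM of Ccnb1 (next 1.47), 7.03 FPKM of Plk1 (next 2.74), 6.75 FPKM of Cdc20 (next 3.03), 6.29 FPKM of Tpx2 (next 2.98) and 2.77 FPKM of Kif11 (next 1.35). MI_DCA heart 4 was low in Rfc4, at 2.98 FPKM (next 4.64). MI_vehicle heart 4 was low in Ccnd2, at 20.31 FPKM (next 24.4). Among sham_vehicle hearts, heart 6 was low in Gins1, at 1.42 FPKM (next 2.31), and high in Ccnd2, at 28.14 FPKM (next 24.59), and heart 1 was low in Cdc20, at 0.81 FPKM (next 1.61).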

How the results depend on the processing

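No called member changed direction under any alternative run. In MI_vehicle against sham_vehicle hearts, members called higher numbered 38 as reported and 34 to 39 under the 9 alternatives that kept all hearts, the 34 being of the 41 members tested with a minimum of 1 FPKM in 6 libraries. Leaving out 1 heart gave 36 to 42 (19 to 23 of licensing and S phase, and 13 mitotic each time), with 1 called lower each time. A pseudocount of 1, which shrinks the folds of low genes, moved the median log2 fold change of the licensing and S-phase members to 0.85. Leaving out 1 heart gave medians of 1.10 to 1.34 for licensing and S phase and 1.18 to 1.5 for mitosis. In MI_DCA against MI_vehicle hearts 0 members were called by limma under every alternative, with medians of -0.66 to -0.38 for licensing and S phase and -1.02 to -0.53 for mitosis on leaving out 1 heart. In MI_DCA against sham_vehicle hearts, 6 or 7 members were called higher under the alternatives that kept all hearts, and 3 to 18 on leaving out 1 heart (3 to 15 of licensing and S phase, 0 to 2 mitotic), with medians of 0.46 to 0.78 for licensing and S phase and 0.28 to 0.79 for mitosis. All 18 libraries in 1 fit added Mcm4 there (adjusted p = 0.0487), and in MI_vehicle against sham_vehicle hearts it added Tyms and Cdk2 (0.0467 and 0.0446) and lost Pole (0.0608). The median of all genes tested, 0.13 in MI_vehicle against sham_vehicle hearts as deposited, was near 0 with median-ratio scaling and -0.04 with quantile normalization.

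Hearts of the same replicate number share only that number. The correlation of their deviations from the group means was -0.044 to 0.085 in MI_vehicle against sham_vehicle, -0.279 to 0.51 in MI_DCA against MI_vehicle and -0.037 to 0.123 in MI_DCA against sham_vehicle, and not every heart correlated best with its own number. With the replicate block, 36 members were higher and 1 lower in MI_vehicle against sham_vehicle (Gins1 and Pole were lost), 0 were called in MI_DCA against MI_vehicle, and 6 were higher in MI_DCA against sham_vehicle (Mcm6 lost at adjusted p = 0.0587, Cdkn1a gained at 0.0345). Over all genes the block gave 1161 higher and 533 lower in MI_DCA against sham_vehicle, against 1871 and 979 without it. Depth limits the lowest values, and no count of reads is at hand to give their error.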
